A study of Mus musculus with 9 samples.

Results

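The comparison of 35 mM with 20 mM glucose rested on 6 of the 9 RNA libraries of a study of mouse pancreatic islets, 3 at each concentration, taken by the concentration in their titles. All 9 held RNA of islets from ICR mice, which are outbred and for which the labels name no engineered allele, kept for 3 days in RPMI medium with fetal bovine serum and antibiotics. As far as the labels say, the groups differed only in glucose: 11.8 mM, the level of the standard medium, 20 mM and 35 mM. The series presents 20 mM as hyperglycemic and 35 mM as extreme hyperglycemic, so that the contrast asks what the islet transcriptome does between high and extreme glucose. One protocol text speaks of 25 mM where titles, sample characteristics and design all give 35 mM, and the latter was followed. Islets came from 9 mice whose age and sex are not stated, and the labels do not say that each library was a separate mouse. The p-values therefore reflect only how far these libraries spread, and that spread may be technical. An islet holds beta cells with insulin, alpha cells with glucagon and delta and PP cells with somatostatin and pancreatic polypeptide, besides vessel, connective and immune cells. In RNA of whole islets, fewer cells of a type and less RNA per cell cannot be told apart.

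Beta cells sense glucose by metabolizing it. Glucose enters through facilitative transporters, is phosphorylated by glucokinase and raises ATP, which closes potassium channels and releases insulin, while its metabolites activate the transcription factor ChREBP, encoded by Mlxipl. ChREBP binds carbohydrate response elements, paired E-box-like sequences with a short gap, in genes for the arrestin-like proteins Txnip and Arrdc4, for pyruvate kinase and for lipid synthesis. Txnip binds thioredoxin, restrains glucose uptake and is a known mediator of beta cell death in high glucose. Dlk1 encodes a membrane protein with EGF repeats of the Notch ligand family, is imprinted, and is best known from fetal tissues and as an inhibitor of fat cell differentiation.

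Of 9739 genes tested, 3 were called at 35 against 20 mM (0.0308%), at an adjusted p under 0.05 (quasi-likelihood test of edgeR, Benjamini-Hochberg adjustment). All 3 were higher at 35 mM. By edgeR and by DESeq2 alike 0 genes were called lower, where 249 had a lower value at an unadjusted p under 0.05. The count of called genes was 1 without 20 mM replicate 3 and 7 without 35 mM replicate 3. The called genes described here are Dlk1 and Txnip. The 250 bases before the start of both, and of Arrdc4, the relative of Txnip with the next smallest p among ChREBP targets, are printed 5′ to 3′ on the strand of the gene, from RefSeq on GRCm38.p6. Capitals mark a match to the ChREBP element in the window of Txnip and an E-box, CACGTG, in that of Arrdc4.
Dlk1 (chr12:109452573-109452822, plus strand): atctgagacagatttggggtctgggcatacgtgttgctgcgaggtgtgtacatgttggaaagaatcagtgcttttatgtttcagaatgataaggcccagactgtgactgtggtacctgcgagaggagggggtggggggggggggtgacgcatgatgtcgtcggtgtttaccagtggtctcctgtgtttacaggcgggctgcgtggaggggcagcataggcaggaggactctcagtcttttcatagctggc
Txnip (chr3:96557707-96557956, plus strand): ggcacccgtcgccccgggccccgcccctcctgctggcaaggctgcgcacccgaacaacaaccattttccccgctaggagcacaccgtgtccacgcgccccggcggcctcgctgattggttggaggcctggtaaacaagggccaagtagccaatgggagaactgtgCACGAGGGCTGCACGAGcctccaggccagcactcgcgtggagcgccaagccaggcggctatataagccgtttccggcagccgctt
Arrdc4 (chr7:68749239-68749488, minus strand): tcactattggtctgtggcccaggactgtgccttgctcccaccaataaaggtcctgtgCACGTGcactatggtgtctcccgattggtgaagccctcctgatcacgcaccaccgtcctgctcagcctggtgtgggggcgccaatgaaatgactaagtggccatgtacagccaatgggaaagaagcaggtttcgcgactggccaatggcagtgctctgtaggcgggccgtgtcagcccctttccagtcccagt

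The ChREBP element was searched on both strands as 2 copies of CACGNG or CNCGTG in any combination with 5 bases between them. Txnip held 1 match, starting 85 bases before the gene, and 24 of 32851 mouse promoter windows of this length held any (0.0731%). The windows of Arrdc4 and Dlk1 held none. Arrdc4 held 1 E-box, starting 193 bases before the gene, a motif present in 6.02% of windows. It also held 6 CCAAT boxes, where 33.8% of windows held at least 1. Of those CCAAT boxes 1 was the longer form GGCCAAT (3.82% of windows), which contains CCAAT, and Txnip held 2 CCAAT boxes. Dlk1 held a TGACG, a part of the cAMP element, 106 bases before the gene (17.8% of windows), and the full TGACGTCA (1.55% of windows) was in none of the 3. These are matches of letters, with no binding measured, and the windows cover only the bases printed. The RefSeq start of Arrdc4 differs by a few bases from that of the annotation used for its position.

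Dlk1 (chr12:109452823-109463336, plus strand, GRCm38) had the largest change among the called genes named here. Its level, in CPM, the read count scaled by the TMM-adjusted library size, was 16.6, 11.4 and 18.9 in the 3 libraries at 20 mM and 49.1, 53.1 and 42.9 at 35 mM. The groups lay far apart, and the lowest 35 mM library stood above the highest 20 mM library. Dlk1 rose by 1.64 ± 0.19 on the log2 scale (SE; 95% interval 1.24 to 2.03; adjusted p = 1.77e-05, edgeR), a fold change of 3.11. Other values with ± are likewise log2 fold changes at 35 against 20 mM with their SE, unless said to be a mean or another contrast. The read counts behind these levels were 54, 45 and 67 at 20 mM and 183, 183 and 151 at 35 mM. Each library is the sum of 3 separately barcoded sub-libraries. CPM of sub-libraries were scaled by the gene counts of the sub-library alone, without TMM. Across the 9 sub-libraries of each group Dlk1 ranged from 5.34 to 27.9 CPM (median 14.1) at 20 mM and from 40.1 to 63.5 (median 48.96) at 35 mM. The 2 ranges did not meet. The call held in all 22 alternative settings run, which included leaving out each of the 9 libraries, with log2 fold changes from 1.44 to 1.80. At 11.8 mM the level was 9.86, 7.18 and 10.5 CPM, and the difference between 20 and 11.8 mM was 0.77 ± 0.23 on the log2 scale (adjusted p = 0.222, edgeR), a comparison that shares the 20 mM libraries with the main one. That lower step did not pass.

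Txnip (chr3:96557957-96561883, plus strand, GRCm38) was the other called gene described here. It stood at 21.9, 27.5 and 26.2 CPM at 20 mM and 51.3, 50.8 and 44.3 CPM at 35 mM, with no overlap between the groups. It rose by 0.95 ± 0.16 on the log2 scale (SE; 95% interval 0.61 to 1.28; adjusted p = 0.00750, edgeR), a fold change of 1.93, from read counts of 71, 109 and 93 to 191, 175 and 156. The sub-libraries ranged from 18.6 to 31.2 CPM at 20 mM and from 40.8 to 57.7 at 35 mM, again with no overlap. At 11.8 mM the level was 13.3, 12.5 and 13.4 CPM, the tightest of the 3 groups, and Txnip also rose between 11.8 and 20 mM, by 0.95 ± 0.18 (adjusted p = 0.0116, edgeR). Its exons overlap Gm15441 on the opposite strand, and the counting strand is not given in the sources used here. Reads over that overlap could thus have been counted for the wrong gene or for neither. The call of Txnip was less firm than that of Dlk1. It held in 16 of 22 alternatives and was lost without replicate 1 or replicate 3 at 20 mM (adjusted p = 0.175 and 0.0802), without replicate 1 or replicate 2 at 35 mM (adjusted p = 0.111 and 0.122), or without sub-library 2 or 3 of every sample (adjusted p = 0.172 and 0.0731), while the log2 fold change stayed between 0.86 and 1.02.

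**Figure D1:**
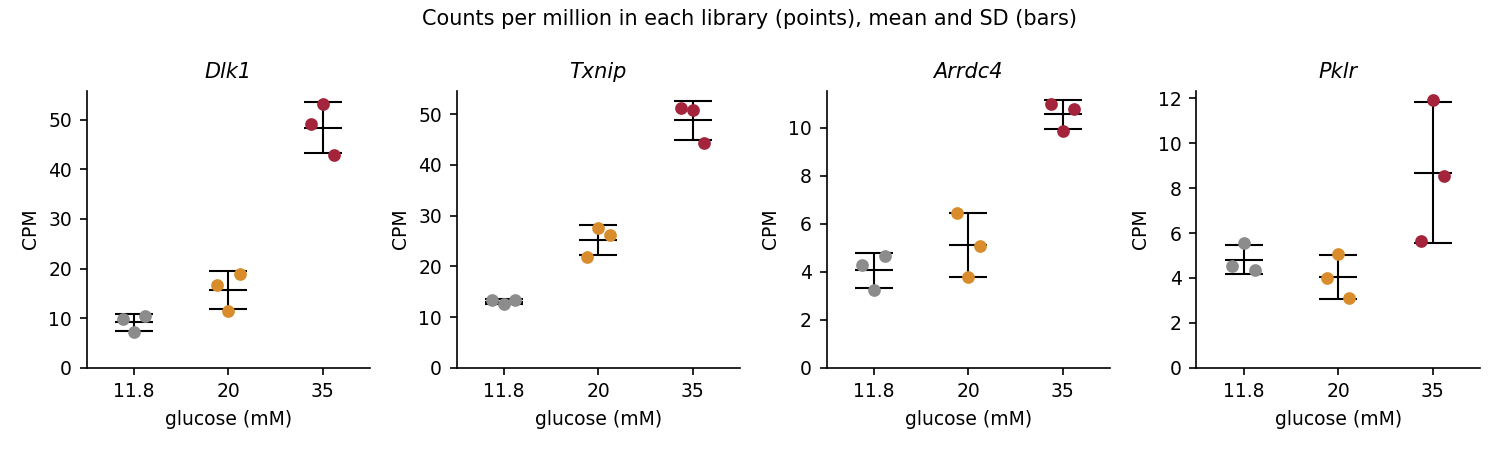
Level of Dlk1, Txnip, Arrdc4 and Pklr in CPM (vertical axes, from 0) in each of the 3 libraries at 11.8, 20 and 35 mM glucose (points), with the mean and SD of each group (bars). The 35 mM libraries lie above every 20 mM library for each of the 4 genes, between 42.9 and 53.1 CPM for Dlk1 and between 44.3 and 51.3 CPM for Txnip.

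Over all genes the log2 fold changes centred near 0. Their median was -0.0012 with a median standard error of 0.25, and values from the 5th to the 95th percentile ran from -0.50 to 0.51. At an unadjusted p under 0.05 there were 515 genes (5.29%), 266 of them higher (2.73%) and 249 lower (2.56%). The libraries of the groups did not overlap for 1160 genes (11.9%), 599 higher at 35 mM (6.15%) and 561 lower (5.76%). Genes named with no overlap stand against these shares, and many were picked by a small p. Gene counts were 3228648 to 4026648 per library at 20 mM and 3472937 to 3614552 at 35 mM. No change smaller than 0.95 on the log2 scale was called at this depth and spread. By the same test 18 genes (0.185%) were called at 20 against 11.8 mM and 84 (0.863%) at 35 against 11.8 mM. Counts in these contrasts share libraries and were not compared by a test.

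**Figure D2:**
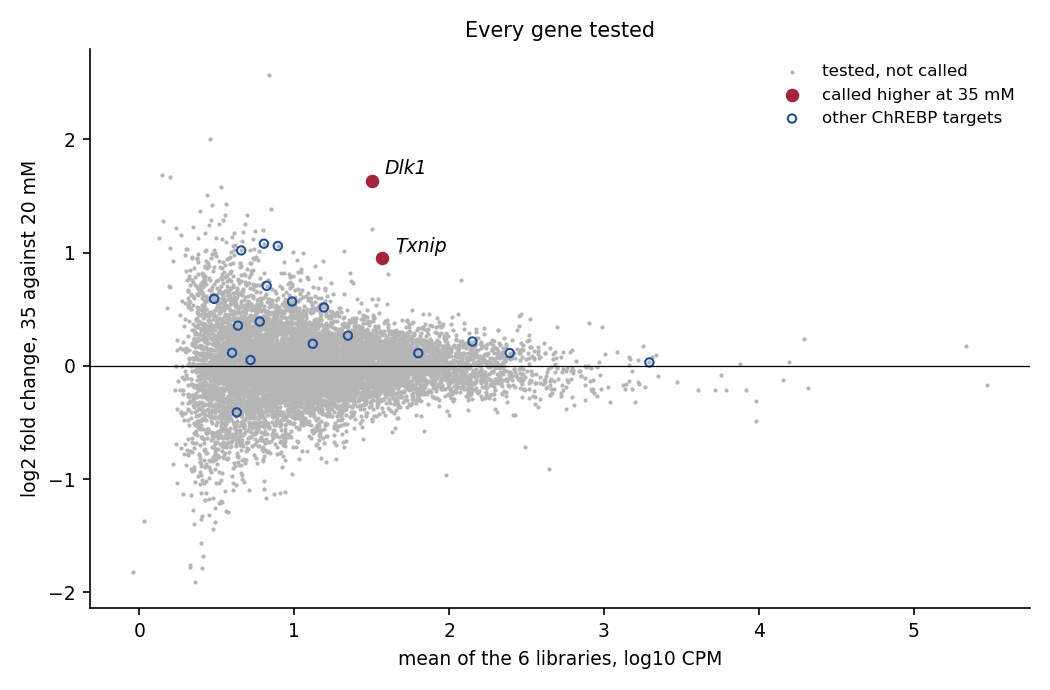
Log2 fold change at 35 against 20 mM (vertical axis) against the mean CPM of the 6 libraries on a log10 scale (horizontal axis) for every gene tested except 1 called gene that is not reported here. Dlk1 (1.64) and Txnip (0.95) are the filled points, and 17 of the 18 other ChREBP targets (open circles) lie above 0.

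Targets of ChREBP had mostly higher values at 35 mM, though only Txnip passed among those listed. Of 19 tested, 1 was called. A positive log2 fold change was seen in 18, where 49.8% of all genes tested were positive, and a negative one in 1 (-0.41). The median log2 fold change was 0.35, against -0.0012 over all genes, and it ranged from 0.21 to 0.50 over the alternatives, lowest with a filter of 10 CPM in 3 libraries. In 8 of 22 alternatives it moved by more than the spread between replicates. Summed, the list took 0.297, 0.227 and 0.217% of the gene counts at 20 mM and 0.266, 0.262 and 0.273% at 35 mM, so that the groups overlapped. For 10 of the 19 the 35 mM libraries lay wholly above the 20 mM libraries, against 6.15% of all genes. This list and those below were drawn up with earlier results of these data known. Counts of their members thus describe the lists and are no independent evidence of a direction. As 0.0308% of all genes tested were called, a list without a called member says little about that list.

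Arrdc4 (chr7:68736995-68749241, minus strand), like Txnip a regulator of glucose uptake, stood at 6.47, 3.79 and 5.08 CPM at 20 mM and 11.002, 9.87 and 10.8 CPM at 35 mM. The groups did not overlap, but the level was low, and the log2 fold change of 1.06 ± 0.29 (95% interval 0.47 to 1.65) had an adjusted p of 0.569 in edgeR. Pklr, the pyruvate kinase of liver and beta cells and a classical ChREBP target, stood at 4.003, 5.05 and 3.10 CPM at 20 mM and 5.63, 11.9 and 8.52 CPM at 35 mM, a log2 fold change of 1.08 ± 0.33 that did not pass (adjusted p = 0.817, edgeR). Its exons overlap Hcn3 on the opposite strand. At 11.8 mM Pklr had stood at 4.53, 5.56 and 4.37 CPM, level with 20 mM, so that its higher values were those of the 35 mM libraries.

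The other targets had smaller or less certain values. Klf10, a zinc finger repressor, had a log2 fold change of 1.02 ± 0.42, and Gys1, glycogen synthase, one of 0.71 ± 0.31. The value of Gys1 was 0.26 without sub-library 1 of every sample and 1.06 without sub-library 3. Exons of Gys1 overlap Ruvbl2 on the opposite strand. Fasn, the fatty acid synthase, stood at 10.2, 12.4 and 15.8 CPM at 20 mM and 18.8, 16.5 and 19.6 CPM at 35 mM (0.52 ± 0.23). The groups did not overlap for Fasn, and its adjusted p was 0.914 in edgeR. Me1, the malic enzyme that supplies NADPH, had 0.21 ± 0.13, and Mlxipl itself, at 60.8 ± 12.1 and 65.7 ± 7.51 CPM (mean ± SD, n = 3), had 0.11 ± 0.16. None of these 5 passed. For the transcript of ChREBP itself the 95% interval of the log2 fold change was -0.21 to 0.43.

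Dlk1 was the only called member of both lists that held it. Among 15 markers of immature or dedifferentiated beta cells tested, 11 values were positive and 4 negative, and the median was 0.27. Gast, the gastrin precursor of fetal islets, stood at 8.31, 7.08 and 3.10 CPM at 20 mM and 9.66, 12.8 and 10.2 CPM at 35 mM (0.82 ± 0.32). Cck, the gut peptide cholecystokinin, stood at 13.5, 6.82 and 5.36 CPM at 20 mM and 13.1, 9.29 and 17.04 CPM at 35 mM (0.64 ± 0.30). Gast did not overlap between the groups and Cck did, and neither passed (adjusted p = 0.905 and 0.932, edgeR). Aldh1a3, the aldehyde dehydrogenase widely used as a marker of dedifferentiation, had a log2 fold change of -0.10 ± 0.30.

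Among 15 imprinted genes tested, 7 values were positive and 8 negative, and the median was -0.0031. Igf2, the paternally expressed growth factor, had -0.39 ± 0.31, and Gnas, the stimulatory G protein subunit, 0.17 ± 0.13. Rtl1, of the same imprinted cluster as Dlk1, had no count in the 6 libraries, and Meg3 and Rian of that cluster are not analysed here.

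At a level of 10 CPM or more, and leaving out predicted genes, the smallest p-values of higher genes after the called ones belonged to Aqp4 and Zc3h7b, and neither passed. Aqp4, a water channel, stood at 22.5, 33.1 and 31.3 CPM at 20 mM and 65.2, 41.8 and 46.3 CPM at 35 mM. The groups did not overlap, with replicate 1 highest at 35 mM and lowest at 20 mM, and the log2 fold change was 0.81 ± 0.19 (adjusted p = 0.467, edgeR). It was called only when no expression filter was applied (adjusted p = 0.00844, edgeR). Zc3h7b, a zinc finger RNA-binding protein whose exons overlap Rangap1 on the opposite strand, stood at 16.9, 16.9 and 18.05 CPM at 20 mM, 27.1, 27.6 and 32.7 at 35 mM (0.75 ± 0.18, adjusted p = 0.556, edgeR) and 28.3, 24.1 and 21.3 at 11.8 mM. Its 35 mM libraries overlapped those at 11.8 mM.

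No gene was called lower, and the smallest adjusted p of a lower gene was 0.569. Of the 5 with the smallest p at 10 CPM or more, predicted genes left out, Ccdc34, a coiled-coil protein, stood at 22.5, 17.4 and 17.2 CPM at 20 mM and 11.5, 10.2 and 10.5 CPM at 35 mM (-0.82 ± 0.21). Adam32, of the ADAM metalloprotease family, had 19.7, 21.7 and 29.6 CPM at 20 mM and 10.5, 15.97 and 13.9 CPM at 35 mM (-0.82 ± 0.21). Rnf141, a RING finger protein whose exons overlap Ampd3 on the opposite strand, had 30.5, 25.8 and 22.3 CPM at 20 mM and 13.4, 16.8 and 17.6 CPM at 35 mM (-0.71 ± 0.21). The groups did not overlap for these 3 genes, which were picked by a small p. Of all genes tested, 5.76% were lower at 35 mM with no overlap. Cryl1, a crystallin-like dehydrogenase, had -0.70 ± 0.22 (adjusted p = 0.817, edgeR), and the fifth was mt-Nd2, described with the mitochondrial genes. Of the 5, Adam32 was called when sub-library 1 of every sample was left out (log2 fold change -1.23, adjusted p = 0.0351, edgeR).

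Of the 18 genes called at 20 against 11.8 mM, only Txnip was called again at 35 against 20 mM. For the secreted peptide and granule genes among them the 20 and 35 mM libraries overlapped. Dapl1, a death-associated protein paralog of little known function in islets, was at 62.4, 44.7 and 39.6 CPM at 11.8 mM, 134, 165 and 117 at 20 mM and 137, 161 and 157 at 35 mM. It rose by 1.504 ± 0.16 in the first step, and in the second, where the libraries overlapped, the log2 fold change was 0.13 ± 0.15 (95% interval -0.18 to 0.44). Both steps use the 20 mM libraries, and whether they differed was not tested.

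Pdyn, the precursor of dynorphin opioid peptides, stood at 378, 393 and 354 CPM at 20 mM and 400.1, 330.4 and 340.0 CPM at 35 mM, after a rise of 1.20 ± 0.14 from 11.8 mM. Its value at 35 against 20 mM was -0.07 ± 0.13 (95% interval -0.34 to 0.20). Vgf, a granule protein and peptide precursor, had 0.25 ± 0.16 (-0.08 to 0.57), Nucb2, the nesfatin precursor, -0.17 ± 0.14 (-0.47 to 0.12), Pcsk1, a convertase that processes proinsulin, -0.07 ± 0.13 (-0.34 to 0.20), and Chgb, a granin, 0.06 ± 0.13 (-0.20 to 0.32). These 4 had risen by 0.97 ± 0.16, 0.91 ± 0.15, 0.75 ± 0.13 and 0.73 ± 0.13 between 11.8 and 20 mM. For Dapl1 and these 5 genes the upper bound of the interval lay under 1, the log2 value of a 2-fold rise. They come from the genes called at 20 against 11.8 mM, a call that used the same 20 mM libraries. Such a choice favours high 20 mM values and so lower values in the second step, which the intervals do not allow for.

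Pdia6, a disulfide isomerase of the endoplasmic reticulum taken from the same called genes, had a lower value at 35 than at 20 mM. It stood at 1127, 1089 and 1259 CPM at 11.8 mM, 1960.3, 1675 and 1618 at 20 mM and 1567, 1400.3 and 1238 at 35 mM. It rose by 0.60 ± 0.13 in the first step, and its log2 fold change of -0.32 ± 0.13 in the second did not pass (adjusted p = 0.905, edgeR), though the libraries did not overlap. Its exons overlap Atp6v1c2 on the opposite strand. Cib3, a calcium-binding protein, fell by 1.22 on the log2 scale in the first step and had -0.61 ± 0.29 in the second (adjusted p = 0.932, edgeR).

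**Figure D3:**
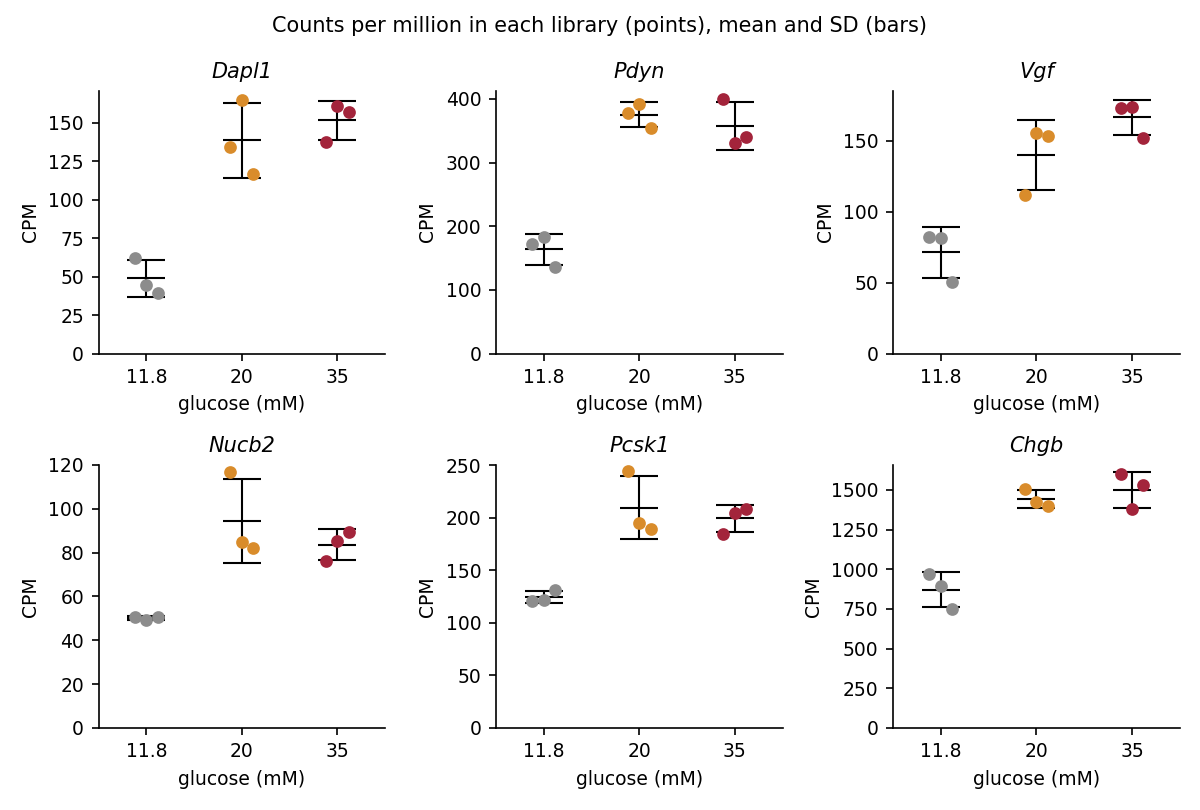
Level of 6 genes called higher at 20 than at 11.8 mM, in CPM (vertical axes, from 0), in each library at 11.8, 20 and 35 mM glucose (points), with the mean and SD of each group (bars). The 20 and 35 mM libraries overlap for all 6 genes, as for Dapl1, whose 20 mM libraries span 117 to 165 CPM and whose 35 mM libraries span 137 to 161.

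No hormone gene of the islet passed the test. Ins1 and Ins2 together took 48.3, 51.97 and 53.4% of the gene counts in the 20 mM libraries and 49.6, 54.3 and 50.6% in the 35 mM libraries. The log2 fold change was 0.18 ± 0.14 for Ins1 (95% interval -0.12 to 0.47) and -0.17 ± 0.17 for Ins2 (-0.52 to 0.18). The libraries overlapped for both genes, but in sub-library 3 of 35 mM replicate 1 Ins2 took 10.6% of the counts, where sub-libraries 1 and 2 of the same sample had 29.2% and 28.9%. Without it, and without a sub-library of 11.8 mM replicate 1 with a low Ins1 share, the value for Ins2 was -0.05. Iapp, the amyloid peptide released with insulin, stood at 19333, 16365 and 18173 CPM at 20 mM and 21017, 20680.0 and 21781 CPM at 35 mM, with no overlap and a log2 fold change of 0.24 ± 0.13 that did not pass (adjusted p = 0.932, edgeR). Gcg, glucagon, had -0.12 ± 0.13, Sst, somatostatin, 0.04 ± 0.15, and Ppy, pancreatic polypeptide, -0.21 ± 0.17. In these 3 the groups overlapped.

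None of 21 genes of mature beta cell identity was called, where 0.0308% of all genes tested were. Of the 21, 13 were positive and 8 negative, where 49.8% of all genes were positive. The median of the 21 was 0.04 (-0.04 to 0.10 over the alternatives). It turned to -0.02 without 20 mM replicate 2 and -0.0022 without 35 mM replicate 2. Ucn3, urocortin 3, which marks mature beta cells, had -0.04 ± 0.13 and Slc2a2, the main glucose transporter of mouse beta cells, 0.02 ± 0.15. Slc30a8, which carries zinc into insulin granules, had the smallest p on this list. It stood at 239.9, 223 and 233 CPM at 20 mM and 169.6, 185 and 168 CPM at 35 mM, with no overlap and -0.41 ± 0.13 on the log2 scale (adjusted p = 0.878, edgeR). Isl1, a transcription factor of islet cells, had -0.32 ± 0.14, also with no overlap and not called. Mafa, Glp1r and Kcnj11 of this list did not pass the expression filter and were not tested. Among 26 genes of secretory granules and exocytosis none was called and the median was 0.07, which was 0.03 without 20 mM replicate 1 and turned to -0.01 without 35 mM replicate 1. Ptprn, a granule membrane protein whose exons overlap Gm28294 on the opposite strand, stood at 813, 906 and 854 CPM at 20 mM and 1144, 1127 and 983 CPM at 35 mM (0.34 ± 0.14), with no overlap.

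None of 18 receptor genes tested was called, and their median was 0.05 (-0.14 to 0.16 over the alternatives), turning negative without 35 mM replicate 1 (-0.14). The member with the smallest p, Tacr3, the neurokinin B receptor, stood at 8.93, 11.1 and 8.74 CPM at 20 mM and 19.9, 19.5 and 13.9 CPM at 35 mM (0.88 ± 0.24, adjusted p = 0.569, edgeR). Adra2a, the adrenergic receptor that restrains insulin release, stood at 19.7, 28.3 and 27.9 CPM at 20 mM and 40.5, 38.3 and 35.8 CPM at 35 mM (0.59 ± 0.17). Neither overlapped between the groups. Of 19 genes of ERK and insulin signalling none was called and the median was 0.14 (0.05 to 0.20 over the alternatives). Dusp4, a phosphatase of ERK, had 2.00 ± 0.54 from only 1.15 and 4.59 CPM on average, and Igf1r, the receptor of insulin-like growth factor, 0.31 ± 0.14. Neither passed. Immediate early genes, which respond to stimulation or handling, had no called member among 18 tested, with 10 positive values, 8 negative ones and a median of 0.08 (-0.08 to 0.13 over the alternatives). The 2 members with the smallest p were negative. Junb stood at 31.4, 32.3 and 36.1 CPM at 20 mM and 29.5, 21.8 and 23.3 CPM at 35 mM (-0.42 ± 0.19) and Btg2, an antiproliferative gene, at 28.9, 25.8 and 27.9 CPM at 20 mM and 23.3, 20.9 and 17.6 CPM at 35 mM (-0.41 ± 0.19). Exons of Junb overlap Prdx2 on the opposite strand.

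Genes of glucose and amino acid use had mostly positive values with no member called. Of 17 glycolysis genes tested, 14 were positive, and the median was 0.20 (0.12 to 0.29 over the alternatives). The values ran from -0.82 to 1.08, the latter that of Pklr, which is also a ChREBP target. At an unadjusted p under 0.05, 2 were higher and 1 was lower. Pkm, the widely expressed pyruvate kinase, stood at 621, 782 and 688 CPM at 20 mM and 909, 1003 and 809 at 35 mM (0.38 ± 0.15), with no overlap. Of 25 genes of amino acid and polyamine metabolism, 17 were positive, the median was 0.11, and 5 had an unadjusted p under 0.05, all higher, against 2.73% of all genes. They included Shmt2, the mitochondrial serine hydroxymethyltransferase, at 56.97, 67.97 and 63.5 CPM at 20 mM and 84.3, 93.5 and 81.5 CPM at 35 mM (0.46 ± 0.14, adjusted p = 0.817, edgeR). They also included Slc7a3, a carrier of cationic amino acids (0.69 ± 0.23), and Aldh18a1, an enzyme of proline synthesis (0.40 ± 0.16). Exons of Shmt2 overlap Ndufa4l2 on the opposite strand. Among 27 genes of lipid and sterol synthesis 19 were positive, the median was 0.09 (0.06 to 0.15 over the alternatives) and none was called. Scd2, a fatty acid desaturase, had 0.35 ± 0.15.

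Among the lists with mostly negative values were those of the mitochondrial genome, the ribosome and the acid compartment, and again no member was called. All 13 messenger RNAs encoded by the mitochondrial genome had negative log2 fold changes, with a median of -0.22. These RNAs took 7.24, 6.18 and 5.82% of the gene counts in the 20 mM libraries and 5.13, 5.20 and 6.04% in the 35 mM libraries, so that the groups overlapped, with 20 mM replicate 1 the highest of all. Without that library the median was -0.14, and without 35 mM replicate 1 it was -0.14. mt-Nd2, a subunit of respiratory complex I, stood at 12556, 10009 and 10861 CPM at 20 mM and 7571, 7138 and 9135 CPM at 35 mM (-0.49 ± 0.15, adjusted p = 0.817, edgeR), and mt-Nd4, of the same complex, at 11792, 10221 and 9736 CPM at 20 mM and 7886, 8814 and 8952 CPM at 35 mM (-0.31 ± 0.15). Neither overlapped between the groups. The 13 RNAs share 1 genome and are not independent of each other. At 11.8 mM their share was 5.70, 6.07 and 6.51%, overlapping both other groups.

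**Figure D4:**
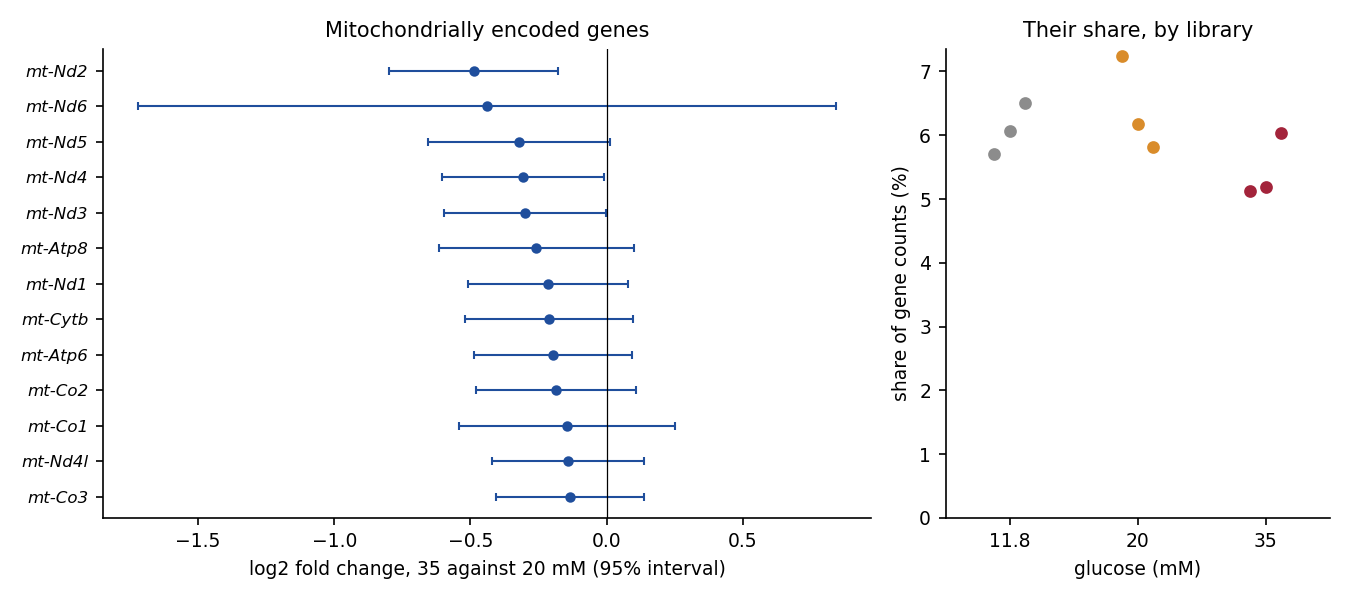
Left, log2 fold change at 35 against 20 mM of the 13 mitochondrially encoded messenger RNAs with 95% intervals (horizontal axis), all on the negative side. Right, their summed share of the gene counts in percent in each library (vertical axis, from 0), where the highest 35 mM library (6.04%) lies above the lowest 20 mM library (5.82%).

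Of 30 nuclear subunits of the respiratory chain 22 were negative, with a median of -0.05 (-0.12 to -0.04 over the alternatives). Among 33 ribosomal protein genes 32 were negative, with a median of -0.15. Dropping replicate 1 of the 20 mM group left a ribosomal median of -0.04, dropping replicate 1 of the 35 mM group -0.09, and dropping replicate 3 of the 35 mM group -0.22. Of 26 genes of the lysosome and its proton pump 21 were negative, with a median of -0.09. It was -0.05 with replicate 1 of the 20 mM group left out, -0.04 with that of the 35 mM group left out, and -0.14 with replicate 3 of the 20 mM group left out.

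The unfolded protein response, by which cells adapt the endoplasmic reticulum to protein load, had 25 genes tested and none called. Of these 18 were negative, and the median was -0.09 (-0.11 to -0.04 over the alternatives). Besides Pdia6, Derl3, a factor of protein retrotranslocation, had -0.74 ± 0.33. Targets of the integrated stress response, driven by Atf4, had a median of 0.12 over 25 genes with 17 positive, and it was 0.05 without 20 mM replicate 1. Of the p53 and apoptosis genes none of 19 was called, with 11 positive values and 8 negative ones. Their median was 0.05 (-0.04 to 0.16 over the alternatives). Cdkn1a, the p21 inhibitor of the cell cycle, whose exons overlap AC167363.2 on the opposite strand, had 0.33 ± 0.15. Zmat3, a p53 target, had 0.60 ± 0.23, and these were the members with the smallest p. Genes of proliferation had a median of -0.20 over the 22 tested (-0.46 to -0.12 over the alternatives), 16 of them negative, and 6 had an unadjusted p under 0.05, all lower, against 2.56% of all genes. Mcm6, of the replicative helicase, had -0.70 ± 0.30 at 10.8 and 6.56 CPM on average, and Top2a, a topoisomerase of dividing cells, -0.44 ± 0.19 at 44.4 and 32.7 CPM. The groups overlapped for Top2a, at 61.3, 35.9 and 36.1 CPM at 20 mM and 30.3, 27.3 and 40.3 CPM at 35 mM. Summed, the list took 0.0833% to 0.0898% of the counts at 20 mM and 0.0842% to 0.0931% at 35 mM, ranges that overlapped.

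**Figure D5:**
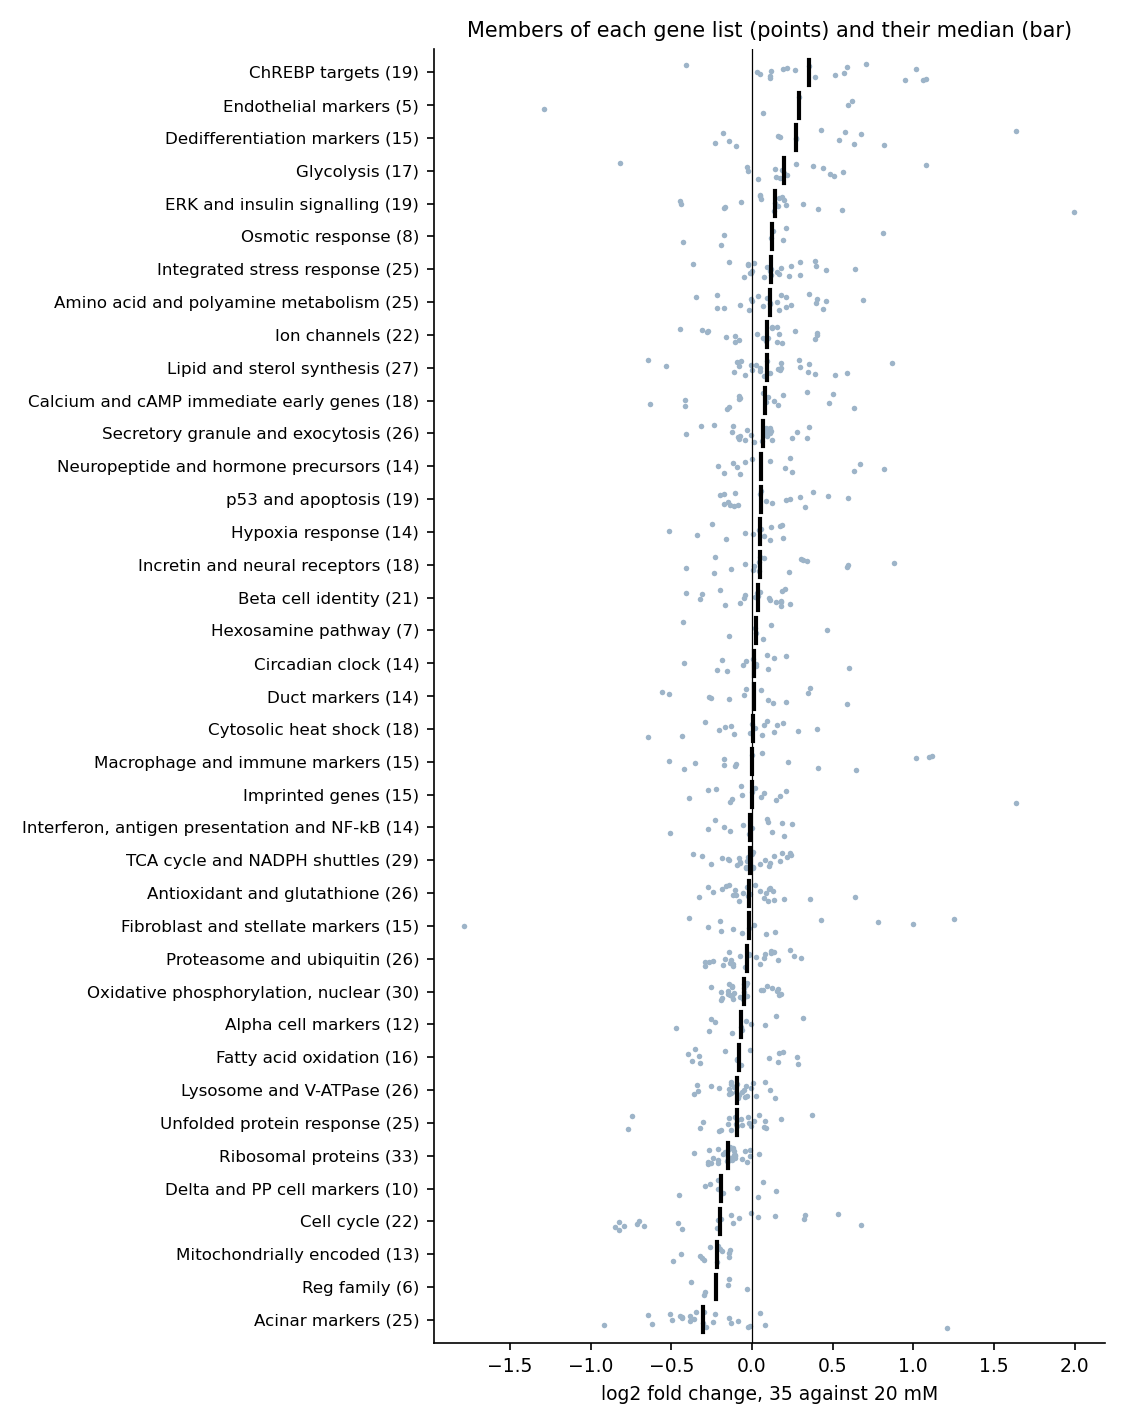
Log2 fold change at 35 against 20 mM (horizontal axis) of every tested member (points) of the 39 gene lists, with the median of each list (bar) and the number tested in parentheses, ordered by median. The ChREBP targets have the highest median (0.35) and the acinar markers the lowest (-0.30), and 3 lists hold a called gene, Dlk1 or Txnip.

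Markers of the cells around the beta cell were followed beside these values. None of the acinar, duct, endothelial, fibroblast or immune markers was called. The digestive enzyme genes of acinar cells had a median of -0.30 over 25 tested, which depended on 20 mM replicate 1: without it the median was 0.10. Of the 25, 3 were positive and 22 negative, and the 2 with the smallest p went opposite ways. Prss1 had 1.21 ± 0.79, with no overlap between the groups. Cela2a, whose exons overlap Casp9 on the opposite strand, had -0.62 ± 0.45, with overlap. Endothelial markers had a median of 0.29 over 5 tested (0.02 to 0.57), 4 positive and 1 negative. The negative one was Flt1, a receptor of vessel cells (-1.29 ± 0.44). Fibroblast and stellate markers had a median of -0.02 over 15 tested (-0.14 to 0.11), 7 positive and 8 negative, and the members with the smallest p, Des and Lum, had 1.25 ± 0.42 and -1.78 ± 0.61. The groups overlapped for Flt1, Des and Lum, and the mean of each group was under 10 CPM. Macrophage and immune markers had 8 positive and 7 negative values of 15, with a median that changed sign over the alternatives (-0.19 to 0.23). They ran from -0.51 for C1qb, a complement subunit of macrophages, to 1.12 for H2-Ab1, an antigen-presenting protein (-0.25 without 35 mM replicate 1), and libraries overlapped for both. Alpha cell markers had a median of -0.07 over 12 tested (-0.16 to -0.03). Delta and PP cell markers had one of -0.19 over 10, which was -0.04 without either 20 mM replicate 1 or 35 mM replicate 1. Summed over each list, acinar markers took 0.868% to 1.60% of the counts at 20 mM and 0.843% to 1.36% at 35 mM, with Amy2a1 at 0 in the 6 libraries. Endothelial markers took 0.00186% to 0.00258% and 0.00201% to 0.00243%, with Cldn5 at 0. Fibroblast and stellate markers took 0.0314% to 0.0485% and 0.0338% to 0.0547%, with none at 0, and immune markers 0.0156% to 0.0198% and 0.0129% to 0.0263%, with Cd3e at 0. The ranges of the groups overlapped for each of these 4 lists. Their part in the values of Dlk1 and Txnip was not tested. Over all 39 lists 677 genes were tested, and Dlk1 and Txnip were the only called members.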

How the data were processed

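RNA of islets was made into 9 libraries by CEL-Seq2, which tags transcript 3' ends with a barcode and a random molecular identifier, from 3 ng of RNA, per the labels' protocols. The authors deposited read counts per gene for each barcoded sub-library. The submitters' processing notes name GRCm38.p4, cutadapt, TopHat, HTSeq and DESeq2, without versions; neither the annotation nor the strand setting is given in the sources used here. Counts were not collapsed by molecular identifier: the highest was 605402, and 16 genes exceeded the 4096 possible identifiers of 6 bases. Statements of depth thus cover counting error alone.

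A deposited sample sheet linked each of 27 sub-libraries to a sample, and they were summed to 9 libraries of 3228648 to 4559561 gene counts. A further 30 columns match no sample label and were not used. Of 22145 features, 92 spike-ins and 5 summary lines entered neither library sizes nor tests. Summary lines made up 19.6% to 29.9% of all counts. Symbols were matched for 21781 of 22048 genes by Ensembl identifier, and positions and overlapping exons came from GENCODE M21 (GRCm38). No 2 libraries of a group agreed within counting noise.

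Tests used R 4.3.3 and edgeR 4.0.16: TMM, filterByExpr by group, 1 mean per concentration, with all 9 libraries in the fit and 6 residual degrees of freedom, and the robust quasi-likelihood test, with Benjamini-Hochberg adjustment over 9739 genes, and a call at an adjusted p under 0.05. Errors of log2 fold changes are SE, and CPM used TMM-scaled library sizes, except for sub-libraries, which were scaled by their own gene counts. An exact permutation test of 3 against 3 libraries cannot go below 0.1, so calls rest on sharing the spread across genes. The pipeline was tested on simulated data. Alternatives, some with DESeq2 1.42.0, are in the closing section.

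Members and gene lists were chosen with earlier results of these data known. The naming rule took called genes at 10 CPM or more, in a direction with fewer than 5 of these the smallest p-values up to 5, up to 4 called members of each list or else the 2 with the smallest p, and 14 fixed genes. Predicted genes and pseudogenes were left out. Outside it lie Klf10, Gys1, Nucb2, Pcsk1, Chgb, Mlxipl, Igf2, Gnas, Aldh1a3 and Cib3, chosen after their values were seen. Alias symbols were removed from the lists once the count table was seen. Of the called genes 1 is not reported here; it stays in counts over all genes and is left out of list counts.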

Additional observations from a re-analysis of the deposited data

How the results depend on the processing

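The call of Dlk1 held in all 22 alternatives, and its log2 fold change stayed between 1.44 and 1.80. Txnip kept its direction in all 22 and its call in 16, as given with its values. DESeq2 size factors, the DESeq2 Wald test and removal of the 20 most abundant genes moved the median of all genes by under 0.01. With the replicate number as a block over the 6 libraries, 8 genes were called, 7 higher and 1 lower, 4 of them on the lists; over all 9 libraries the block left 3 called. Over the genes tested, same-numbered libraries at 20 and 35 mM did not deviate together (r = -0.0732, 0.0224 and -0.0548). A pairing that moved few genes would not show in these values, so whether the numbers pair the samples was not settled. Without sub-library 1 of every sample 5 genes were called, 2 of them lower. Without sub-library 2, 1 gene of the lists was called. Without sub-library 3, 1 gene was called, higher and on the lists. Leaving out 1 library at a time gave 1 to 7 called genes, 1 to 4 higher and 0 to 3 lower, with 1 to 2 of them on the lists; the lowest count came without replicate 3 at 20 mM and the highest without replicate 3 at 35 mM. The cause was not tested.

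Of 1333 values of 62 genes under the alternatives, 6 lost a call (all Txnip), 3 gained one and 17 changed sign. The gained calls were Aqp4 with no filter, and Adam32 and Flt1 without sub-library 1 (Flt1 -3.22). Without sub-library 1, values were 0.0172 for Ucn3, -0.0494 for Slc2a2 and -0.00051 for Chgb. Without sub-library 2 they were 0.0170 for Ucn3, 0.17 for Igf2 and 0.23 for Aldh1a3, and without sub-library 3 they were -0.0395 for Slc2a2 and -0.0181 for Zmat3. Leaving out 1 library at a time gave -0.0345 to 0.103 for Sst, -0.124 to 0.0775 for Ucn3, -0.0994 to 0.154 for Slc2a2, -0.265 to 0.00285 for Nucb2, -0.139 to 0.0503 for Pcsk1, -0.25 to 1.58 for H2-Ab1 and -0.0392 to 0.227 for Mlxipl. Of 857 list medians, 55 moved by more than the spread between replicates. Dusp4, at about 1 to 5 CPM, was tested in only some alternatives, where few counts limit the precision.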
